A study of Canis lupus familiaris with 36 samples.

Results

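DSE (ENSCAFG00000000886) encodes dermatan sulfate epimerase, and it is described here in CLBL-1, a B-cell lymphoma line of the dog, as 1 of the 30424 genes in the count table. The row was chosen by measured values of these same libraries, since the study lists DSE among the hub genes of a co-expression module and its changes at 48 h were known beforehand. Its levels and differences are therefore given as descriptions with their errors and without a test.

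Dermatan sulfate epimerase works inside the secretory pathway. It turns D-glucuronic acid units of a growing chondroitin chain into L-iduronic acid, which makes the chain dermatan sulfate. The chain is carried by proteoglycans of the cell surface and the matrix, and iduronic acid makes it flexible and changes which proteins it binds. DSE was also described as a tumour antigen recognised by T cells, under the name SART2, and it has a paralog, DSEL.

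CLBL-1 cells were incubated with 1 µM ibrutinib (Ibr), a covalent inhibitor of the tyrosine kinase BTK, with 5 µM AS-605240 (AS), an inhibitor of the lipid kinase PIK3CG, with both at these doses (Ibr + AS), or with the solvent DMSO alone. Each of the 4 treatments lasted 24, 48 or 72 h and was made at passage p121 (replicate 1), p126 (replicate 2) and p128 (replicate 3), so that 12 groups of 3 libraries, 36 in all, were sequenced. The replicates are passages of 1 line, so the spread between them is that of repeated cultures and not of different dogs. The DMSO medium held as much solvent as the combined treatment, and whether single-inhibitor wells held that amount is not stated in the sources used here. Ibr 72 h replicate 3 was discarded by the authors. Its DSE level is shown, but it is in no group mean and in no fold change or test given here. It entered the scaling factors of the levels, ranges over all libraries, distances between libraries, and alternatives with all 36 libraries. DMSO 24 h replicate 3 is p126 by its title but p128 by its passage entry, and was used as p128.

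Library totals over all genes were 9941919 to 14703839 reads (median 11888025). Of the B-cell markers, 3 of 8 could be paired with an identifier. TNFRSF13C lay between 70.5 and 308 CPM (counts scaled per library to a common total), DLA-DRA between 2090 and 4710, and DLA-DOA between 41.2 and 99.7. The T or NK cell markers CD226 and IL2RB (2 of 3 paired) reached at most 7 reads, and the fibroblast markers COL14A1 and FBN2 (2 of 4 paired) at most 3. Of the myeloid markers (2 of 3 paired), TREM2 reached at most 1 read, while LYZ lay between 65.4 and 314 CPM. LYZ, the gene for lysozyme, varied with treatment. At 24 h it was 83.7 ± 7.73 CPM with DMSO, 147.5 ± 13 with Ibr, 92.05 ± 5.44 with AS and 272 ± 53.3 with Ibr + AS (SD, n = 3). TNFRSF13C, the gene for the BAFF receptor, had the same order, with 116.9 ± 12.4, 163.5 ± 8.61, 127 ± 3.89 and 284.7 ± 20.3 CPM. For both genes the AS libraries overlapped with the DMSO libraries at 24 h, and those of Ibr and Ibr + AS did not. In DMSO TNFRSF13C was lower at 72 h (75.3 ± 5.27 CPM), while DLA-DRA was 2646 ± 47.4 CPM at 24 h and 4478 ± 261 at 72 h. The part of these markers in the DSE differences was not tested. RNA was measured in bulk, so that fewer cells with DSE RNA and less DSE RNA per cell cannot be told apart.

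DSE was read well above the counting limit in every library. Reads on DSE numbered from 2330 to 6213 per library, which is 0.0211% to 0.0484% of the reads on genes. After scaling by library size with TMM factors, the level ranged from 207.9 CPM in DMSO 72 h replicate 3 to 482.3 CPM in Ibr 24 h replicate 2, a ratio of 2.32. The pooled SD within groups was 24.6 CPM, or 0.0927 on the log2 scale (23 residual degrees of freedom).

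In cells with DMSO alone, DSE was lower the longer the incubation lasted. At 24 h replicates 1, 2 and 3 held 349.6, 369.4 and 350.9 CPM (356.7 ± 11.1, SD, n = 3). At 48 h they held 305.4, 316.3 and 296.3 CPM (306 ± 10), and at 72 h 227.2, 217.7 and 207.9 CPM (217.6 ± 9.67). The ranges of the 3 incubation times did not overlap. In a fit of the 9 DMSO libraries, the log2 fold change (log2 FC) from 24 h was -0.23 at 48 h and -0.75 at 72 h (SE 0.072 each). The latter is a change of -40.4%, with differences of -0.621, -0.763 and -0.755 in passages p121, p126 and p128. Among the 10785 genes that averaged 1 CPM or more, 12.1% had a larger absolute log2 FC than DSE between 24 and 72 h.

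With Ibr, DSE was higher than with DMSO at each incubation time. The 24 h libraries held 452.7, 482.3 and 471.5 CPM (468.9 ± 15, SD, n = 3), all above every other library of the study. At 48 h the levels were 403.9, 387 and 415.6 CPM (402.2 ± 14.4). At 72 h they were 339 and 331.1 CPM (335.1 ± 5.57, n = 2), and 319.3 CPM in the discarded library. No Ibr library overlapped with the DMSO libraries of its incubation time. The log2 FC against DMSO was 0.38, 0.41 and 0.63 at 24, 48 and 72 h, with SE 0.088, 0.088 and 0.1. In percent, DSE was higher by 30.2, 32.9 and 54.7. Even so, Ibr libraries also held less DSE with time, with a log2 FC from 24 h of -0.21 (SE 0.088) at 48 h and -0.48 (SE 0.099) at 72 h. Against DMSO, 18.2%, 18.6% and 14.7% of the 10785 genes had a larger absolute log2 FC than DSE at 24, 48 and 72 h.

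**Figure D1:**
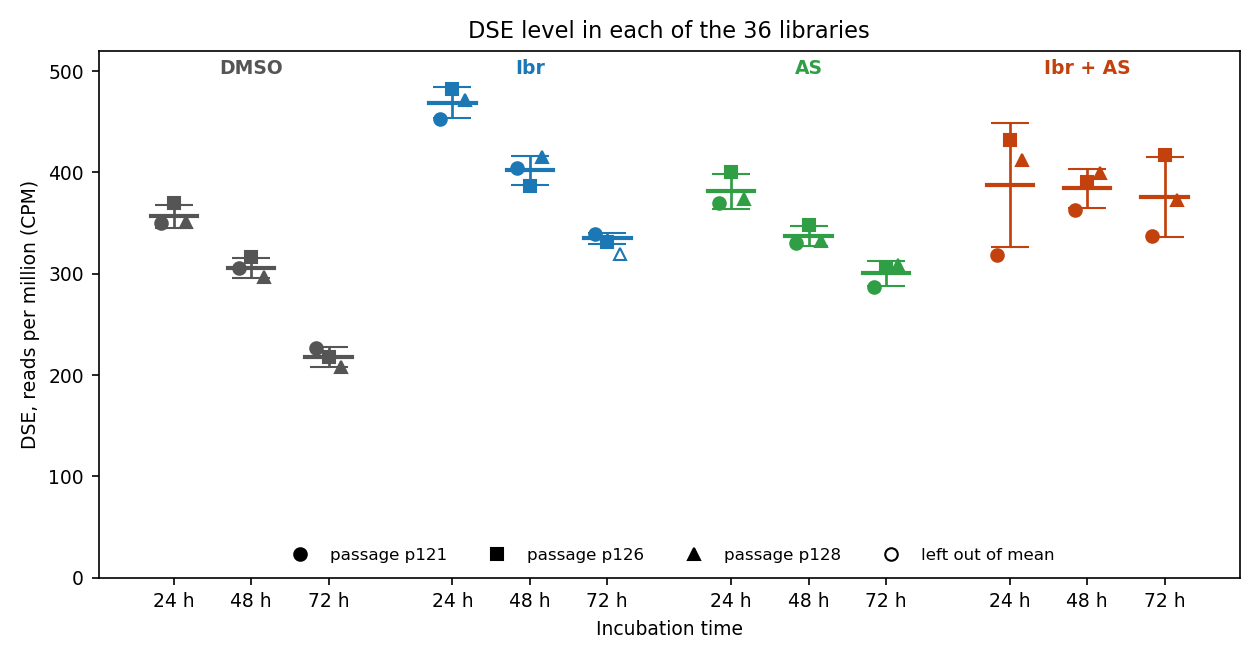
Level of DSE in CPM (vertical axis from 0) in each library, by treatment and incubation time; filled symbols are the 3 passages, bars are the group mean ± SD, and the open triangle is the Ibr 72 h library left out of the mean. DMSO libraries descend from 356.7 CPM at 24 h to 217.6 CPM at 72 h, while Ibr + AS group means stay between 375.6 and 387.6 CPM with a wide spread at 24 h.

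With AS, the distance from DMSO was small at 24 h and wider at 72 h. Replicates 1, 2 and 3 held 369.6, 400.7 and 373.6 CPM at 24 h (381.3 ± 17), 330.4, 348.1 and 332.8 CPM at 48 h (337.1 ± 9.64) and 286.6, 306.6 and 308.3 CPM at 72 h (300.5 ± 12.1, SD, n = 3). At each incubation time the lowest AS library was above the highest DMSO library, at 24 h by a margin far below the pooled SD. At 24, 48 and 72 h the log2 FC against DMSO was 0.09, 0.16 and 0.48 (SE 0.088 each). At 24 h, 66.9% of the 10785 genes had a larger absolute log2 FC, and at 72 h 14.2%. The difference between AS and DMSO widened from 24 to 72 h by 0.39 on the log2 scale (SE 0.12), with 0.255, 0.377 and 0.478 in the 3 passages.

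With Ibr + AS, DSE hardly differed between incubation times, and the replicates lay farther apart than in the other groups. At 24 h replicates 1, 2 and 3 held 318.2, 432.1 and 412.6 CPM (387.6 ± 60.9, SD, n = 3). Replicate 1 was below all 3 DMSO libraries and the other replicates were above them. At 48 h the levels were 362.6, 390.4 and 399.7 CPM (384.2 ± 19.3), and at 72 h 337.2, 416.8 and 372.8 CPM (375.6 ± 39.8), all above DMSO of the same time. The log2 FC against DMSO was 0.1, 0.33 and 0.79 at 24, 48 and 72 h (SE 0.088 each). The last of these corresponds to 1.73-fold and is the largest distance from DMSO of DSE in the 9 comparisons. In the 3 passages it was 0.569, 0.937 and 0.842. Of the 10785 genes, 85.9%, 49.9% and 14.7% had a larger absolute log2 FC than DSE at 24, 48 and 72 h.

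At 24 h, the passages disagreed in sign for Ibr + AS against DMSO, with -0.136 in passage p121 and 0.226 and 0.234 in passages p126 and p128. Ibr + AS 24 h replicate 1 was the library farthest from the rest of its group, with a root mean square difference of 0.43 on the log2 scale over 10780 genes, where the next library had 0.384. Without it the log2 FC was 0.18 (chosen after the data had been seen). Without it the widening of the difference between Ibr + AS and DMSO from 24 to 72 h was 0.61, where it was 0.69 with it.

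The distance of DSE from DMSO was wider at 72 h than at 24 h under all 3 treatments, which share the DMSO libraries. From 24 to 72 h it widened by 0.25 for Ibr (SE 0.13), by 0.39 for AS and by 0.69 for Ibr + AS (SE 0.12 each) on the log2 scale. For Ibr + AS the passages gave 0.705, 0.711 and 0.609, and for Ibr the 2 passages measured gave 0.204 and 0.22. These values contain the decline in DMSO. Of the 10785 genes, 58.2% had a larger absolute change of this distance than DSE for Ibr, 28.9% for AS and 24.2% for Ibr + AS. Within Ibr + AS itself, the log2 FC from 24 h was 0 at 48 h and -0.04 at 72 h (SE 0.088 each), and -0.1 and -0.13 without replicate 1 of 24 h. Within AS it was -0.17 at 48 h and -0.34 at 72 h.

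**Figure D2:**
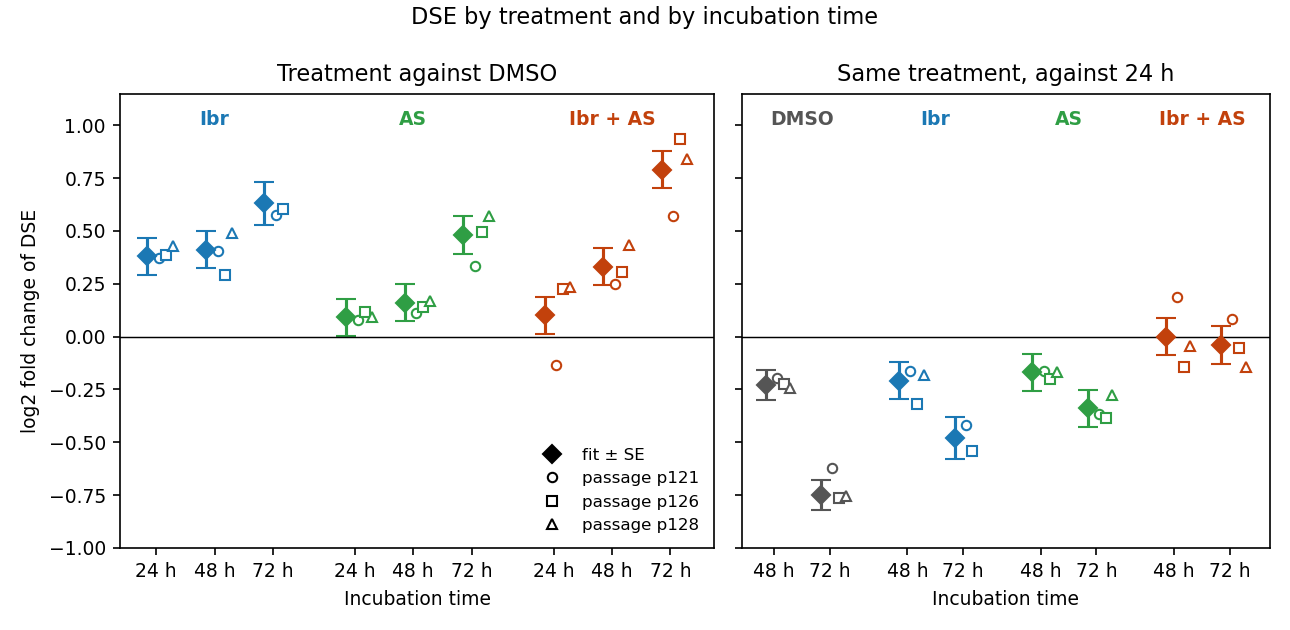
Log2 FC of DSE for each treatment against DMSO of the same incubation time (left) and for each treatment at 48 or 72 h against its own 24 h (right); diamonds are the fit with its SE and open symbols are single passages. Against DMSO the values at 72 h are 0.63 for Ibr, 0.48 for AS and 0.79 for Ibr + AS, and the 1 passage below 0 is passage p121 with Ibr + AS at 24 h.

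Ibr and AS were each given at 1 dose, which were not the same. DSE was higher with Ibr than with AS by 0.29, 0.25 and 0.15 on the log2 scale at 24, 48 and 72 h, with SE 0.088, 0.088 and 0.099. The sign was shared by every passage measured. The difference at 72 h rests on 2 passages, with 0.242 and 0.111.

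The combination was not above both single treatments at each time. Against Ibr, the log2 FC of Ibr + AS at 24, 48 and 72 h was -0.29, -0.08 and 0.16 (SE 0.088, 0.088 and 0.099). Without Ibr + AS 24 h replicate 1 the first of these was -0.18, and the third was -0.008 in passage p121 and 0.332 in passage p126. Against AS it was 0.01, 0.17 and 0.31 (SE 0.088 each), and 0.13 at 24 h without that library.

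The level with Ibr + AS was lower than the sum of both single log2 FCs would give. This departure from additivity was -0.37 at 24 h, -0.24 at 48 h and -0.32 at 72 h, with SE 0.12, 0.12 and 0.13. It was negative in each of the passages measured (3, 3 and 2). At 24 h it was -0.23 without Ibr + AS replicate 1. Of the 10785 genes, 24% departed further from additivity at 24 h, 58.2% at 48 h and 40.5% at 72 h.

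Ordered by group mean, DSE was highest with Ibr at 24 h, followed by Ibr at 48 h, Ibr + AS at 24 h, Ibr + AS at 48 h, AS at 24 h, Ibr + AS at 72 h, DMSO at 24 h, AS at 48 h, Ibr at 72 h, DMSO at 48 h, AS at 72 h and DMSO at 72 h. The highest mean was 2.15 times the lowest. Neighbours in this order overlapped in 7 of 11 cases. The steps without overlap were those from Ibr 24 h to Ibr 48 h, from DMSO 24 h to AS 48 h, from Ibr 72 h to DMSO 48 h and from AS 72 h to DMSO 72 h. The place of Ibr + AS at 24 h rested on replicate 1. Without it the mean of the other 2 libraries was 422.3 CPM, above that of Ibr at 48 h (402.2 CPM). Over all pairs of groups, 47 of 66 did not overlap.

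Log2 CPM over 35 libraries was fitted by treatment, incubation time and passage number without interaction. Shares are variances of the fitted terms over the sum of term and residual variances. For DSE, treatment took 43.7%, incubation time 33.9% and passage number 2.34%. The median gene of the 10785 gave 33.4%, 6.97% and 2.68%. These shares were higher than those of DSE in 37%, 4.09% and 54.3% of the genes. In a separate fit the 12 groups together took 92.8%, against 69.1% for the median gene.

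The numbering of the libraries in the table's header falls into 2 series, which are taken here as sequencing runs by inference. Passage p121 was wholly in the first run and passage p128 wholly in the second, and passage p126 was divided between them. Within single runs, the differences between treatment and DMSO in passages p121 and p128 had the same sign as the fit in all but passage p121 of Ibr + AS at 24 h.

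Of 62 genes of glycosaminoglycan synthesis, sulfation, transport, breakdown and core proteins, DSE and 7 others could be paired with identifiers. Neither DSEL nor the sulfotransferases that act next to DSE in the chain, other than UST, were among them, so the pathway was seen only in part. The 7 genes were tested with edgeR's quasi-likelihood test and Benjamini-Hochberg adjustment over all 18670 genes (16468 for DMSO with time). SLC35D2, a nucleotide sugar transporter, reached at most 4 reads and gets no fold change.

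At 24 and 48 h with a single inhibitor, the 7 glycosaminoglycan genes were too few to tell their counts from the shares of all genes. With Ibr at 24 h 0 of 7 were higher and 0 lower, where 5.35% and 3.78% of all genes were, and at 48 h 0 were higher and 1 lower (5.65% and 4.94% of all genes). With AS the counts were 0 and 0 at 24 h (1.49% and 1.03% of all genes) and 0 and 1 at 48 h (1.56% and 2.1%). The gene that was lower at 48 h was UST both times, the sulfotransferase that sulfates iduronic acid units of the kind DSE makes, and both calls were lost without replicate 3 (edgeR adjusted p = 0.0663 and 0.375).

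At 72 h, 2 genes rose and 2 fell with Ibr (8.36% and 9.26% of all genes), and 1 rose and 3 fell with AS (6.8% and 6.4%). With Ibr + AS, 1 rose and 2 fell at 24 h (17.1% and 16.9%), 0 rose and 1 fell at 48 h (15.4% and 15.3%), and 1 rose and 2 fell at 72 h (14.1% and 14.5%). In DMSO, 1 rose and 0 fell from 24 to 48 h (5.91% and 4% of all genes), and 3 rose and 1 fell from 24 to 72 h (18.5% and 19.5%). The median log2 FC of the 6 genes with a mean of at least 10 reads lay between -0.22 and 0.1 over these 11 comparisons, against -0.039 to 0.032 for all genes tested.

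UST moved against DSE in DMSO. It held 6.315 ± 0.418 CPM at 24 h, 10.55 ± 1.82 at 48 h and 21.32 ± 1.7 at 72 h (SD, n = 3), without overlap of the 3 ranges. It rose from 24 h by a log2 FC of 0.73 at 48 h (edgeR quasi-likelihood test, adjusted p = 2.17e-06) and of 1.73 at 72 h (adjusted p = 2.1e-43), while DSE was lower at both times. At 72 h UST was 9.967 ± 0.547 CPM with Ibr (n = 2), 9.805 ± 0.646 with AS and 8.531 ± 1.95 with Ibr + AS. These are falls against DMSO with a log2 FC of -1.06, -1.11 and -1.34 and edgeR adjusted p-values of 8.83e-08, 4.12e-10 and 6.94e-14. At 24 h, Ibr + AS had the opposite sign, with 9.25 ± 0.373 CPM and a log2 FC of 0.53 (edgeR adjusted p = 0.0043).

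EXT1, a polymerase of the heparan sulfate chain, also moved against DSE at 72 h, at 18 to 107 reads per library. It was 3.554 ± 0.432 CPM in DMSO at 24 h and 6.369 ± 1.01 at 72 h (SD, n = 3), a rise of 0.81 on the log2 scale (edgeR adjusted p = 4.93e-06). Against DMSO at 72 h it fell with Ibr (log2 FC -1.33, edgeR adjusted p = 7.35e-06), AS (-0.87, 0.000728) and Ibr + AS (-1.22, 9.48e-07), and with Ibr + AS it fell at 48 h as well (-0.83, 0.00213), which was lost without replicate 2 (edgeR adjusted p = 0.141). Genes past the adjusted p of 0.05 whose log2 FC also exceeded 1 in size are called differentially expressed genes (DEGs). By this definition, UST and EXT1 were the 2 lower DEGs of the list with Ibr at 72 h (2.69% of all genes) and with Ibr + AS at 72 h (4.3%). Without replicate 2, which leaves 1 Ibr library at 72 h, UST with Ibr had a log2 FC of -0.98. UST was the 1 lower DEG with AS at 72 h (1.48%) and the 1 higher DEG in DMSO at 72 h (4.83%).

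ARSB, the lysosomal sulfatase that removes sulfate from galactosamine units of dermatan and chondroitin sulfate, moved in the direction of DSE at 72 h. It was 49.05 ± 1.76 CPM in DMSO at 24 h and 29.26 ± 3.76 at 72 h (SD, n = 3), a fall with a log2 FC of -0.78 (edgeR adjusted p = 1.59e-16). At 72 h it was 46.45 ± 0.112 CPM with Ibr (n = 2), 39.1 ± 7.42 with AS and 48.13 ± 2.91 with Ibr + AS. It rose against DMSO by 0.66, 0.43 and 0.72 on the log2 scale, with edgeR adjusted p-values of 1.55e-05, 0.00313 and 6.03e-08, and for AS the call was lost without replicate 2 (log2 FC 0.22, adjusted p = 0.351). With Ibr + AS at 24 h it fell (-0.36, edgeR adjusted p = 0.00533), which was lost without the Ibr + AS library of replicate 1 (adjusted p = 0.0846).

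The other genes of the list passed the test in single comparisons, and some of these calls were lost when 1 replicate was left out. HPSE, the heparanase that cuts heparan sulfate, rose with Ibr at 72 h (log2 FC 0.43). Its log2 FC was 0.4 without replicate 2, which leaves 1 Ibr library at 72 h. SLC35B4, a transporter of nucleotide sugars into the Golgi, fell with Ibr + AS at 24 h (-0.63, lost without replicate 1). B4GALT7, which adds a galactose to the linker that joins chain and core protein, rose in DMSO from 24 to 72 h (0.35), which was kept, and fell with AS at 72 h (-0.33, lost without replicate 2 or 3).

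**Figure D3:**
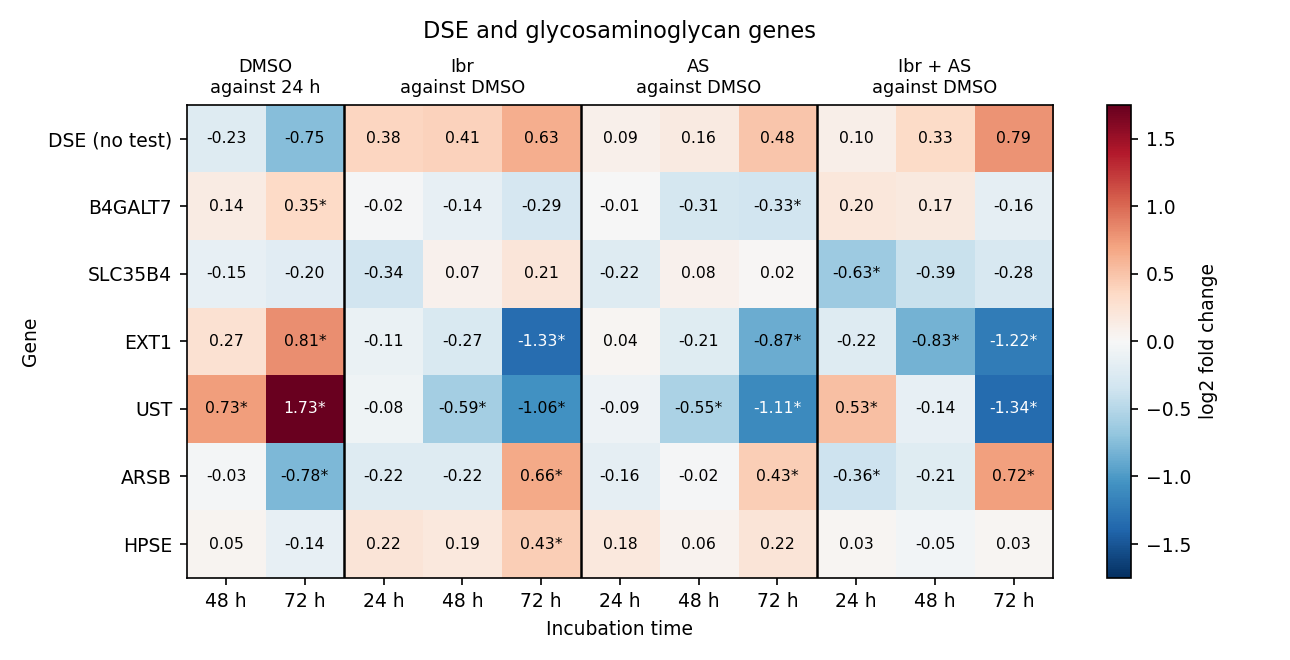
Log2 FC of DSE and of 6 glycosaminoglycan genes in DMSO at 48 and 72 h against 24 h and in each treatment against DMSO (colour and number; red higher, blue lower); asterisks mark an adjusted p of at most 0.05 by edgeR, DSE was not tested, and SLC35D2 is left out for its low counts. At 72 h the rows of UST and EXT1 have the opposite sign to DSE under all 3 treatments and in DMSO, and the row of ARSB has the same sign.

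In the RefSeq annotation of another dog assembly (UU_Cfam_GSD_1.0), DSE lies on chromosome 1 beside the end of WDR27, which it overlaps, and close to CALHM4, CALHM5, RSPH4A, ZUP1, KPNA5 and FAM162B. Its position in CanFam3.1, the build of the count table, was not analysed here. Which strand setting of the read counter was kept is not stated, so reads of a stretch shared by DSE and WDR27 cannot be assigned with certainty to either. WDR27, a gene for a WD repeat protein, was added to the comparisons after the annotation had been seen. It had 332 to 927 reads per library and DSE 2330 to 6213.

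WDR27 rose with Ibr at 24, 48 and 72 h (log2 FC 0.76, 0.44 and 0.39, edgeR adjusted p = 1.11e-07, 0.00267 and 0.0168). With Ibr + AS it rose at each time as well (0.98, 0.91 and 0.5), and with AS at 24 h (0.68, adjusted p = 1.33e-05). The call with Ibr at 48 h was lost without replicate 3 (edgeR adjusted p = 0.0752). At 72 h the log2 FC with Ibr was 0.27 without replicate 2, which leaves 1 Ibr library. In DMSO the level of WDR27 did not show the decline of DSE, with 32.57 ± 2.63, 34.19 ± 5.35 and 36.6 ± 5.07 CPM at 24, 48 and 72 h (SD, n = 3). Whether reads of WDR27 contribute to the values of DSE was not tested.

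Of the 6 neighbours, CALHM5, RSPH4A and FAM162B reached at most 1, 7 and 2 reads. ZUP1, which encodes a ubiquitin peptidase, rose with Ibr at 48 h (0.58) and with Ibr + AS at 24 and 48 h (0.49 and 0.64), and fell in DMSO from 24 to 48 h (-0.26, edgeR adjusted p = 0.0455; 0.372 and 0.379 without replicate 1 or 3). KPNA5, an importin of the nuclear import machinery, fell with Ibr + AS at all 3 times (-0.78, -0.6 and -0.48, the last lost without replicate 3). CALHM4, a channel protein gene with 1 to 14 reads per library, was a higher DEG with Ibr (1.3% of all genes) and with Ibr + AS (3.23%) at 72 h, at log2 FC of 1.8 and 1.43. For Ibr, leaving out replicate 1 or 2 leaves 1 library, with a log2 FC of 2.09 and 1.08. The call with Ibr + AS was lost without any of the 3.

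Likeness to DSE was measured as Pearson's r of log2 CPM over the 35 libraries, which share groups, passages and runs. Among the 10784 other genes that averaged 1 CPM or more, r ranged from -0.904 to 0.909 with a median of 0.019, and 3 genes were above 0.9 and 4 below -0.9. These had no symbol, since only 878 of the genes could be paired. Of the paired genes, the highest r were those of MAN1A1 (0.846), TUT7 (0.837), TBC1D5 (0.826), PARVG (0.82) and ITGA4 (0.794). Their ranks from the highest r over all genes were 27, 35, 45, 48 and 73. The lowest r were those of CSNK1E (-0.875), NAB2 (-0.868) and MYO1A (-0.833), with ranks 14, 21 and 69 from the lowest.

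The like genes share the decline in DMSO, which their choice by r over the same libraries favours. MAN1A1, a Golgi mannosidase that trims N-glycans, went from 74.05 ± 3.18 CPM at 24 h to 49.95 ± 1.48 at 72 h in DMSO (SD, n = 3) and was 83.69 ± 11.2 with Ibr + AS at 72 h. ITGA4, an integrin alpha subunit, went from 265.2 ± 5.56 to 163.7 ± 21.1 CPM and was 284.6 ± 58.5 with Ibr + AS at 72 h. PARVG encodes an adaptor of integrin adhesions, and it went from 54.91 ± 1.09 to 36.1 ± 2.35 CPM. It was higher with Ibr + AS than with Ibr at each time, with 78.78, 83.96 and 71.93 CPM against 69.09, 70.72 and 65.84, where DSE was higher only at 72 h.

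Likeness held unequally inside the groups. After group and passage means were taken out, r with DSE was 0.826 for ITGA4, 0.806 for TUT7, a terminal uridylyltransferase of RNA, and 0.696 for TBC1D5, a protein that acts on Rab GTPases. It was 0.209 for MAN1A1 and 0.201 for PARVG. In the Ibr + AS 24 h group, in which DSE ranged from 318.2 to 432.1 CPM, ITGA4 ranged from 199.2 to 324.3 and TUT7 from 119.7 to 182.3. The r inside the groups was not computed without replicate 1 of that group. How far it rests on this library was not tested.

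The unlike genes were highest in DMSO at 72 h, where DSE was lowest, which their choice by low r favours. NAB2, a repressor of EGR transcription factors, went from 16.44 ± 2.61 CPM at 24 h to 42.82 ± 4.21 at 72 h in DMSO (SD, n = 3) and was 10.2 ± 1.55 with Ibr + AS at 72 h. CSNK1E, casein kinase epsilon, went from 32.08 ± 2 to 49.83 ± 4.14 CPM. MYO1A, an unconventional myosin with a mean of 2 CPM, went from 1.149 ± 0.404 to 7.005 ± 0.433 CPM. Inside the groups their r with DSE was -0.083 for NAB2, -0.165 for CSNK1E and -0.409 for MYO1A.

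**Figure D4:**
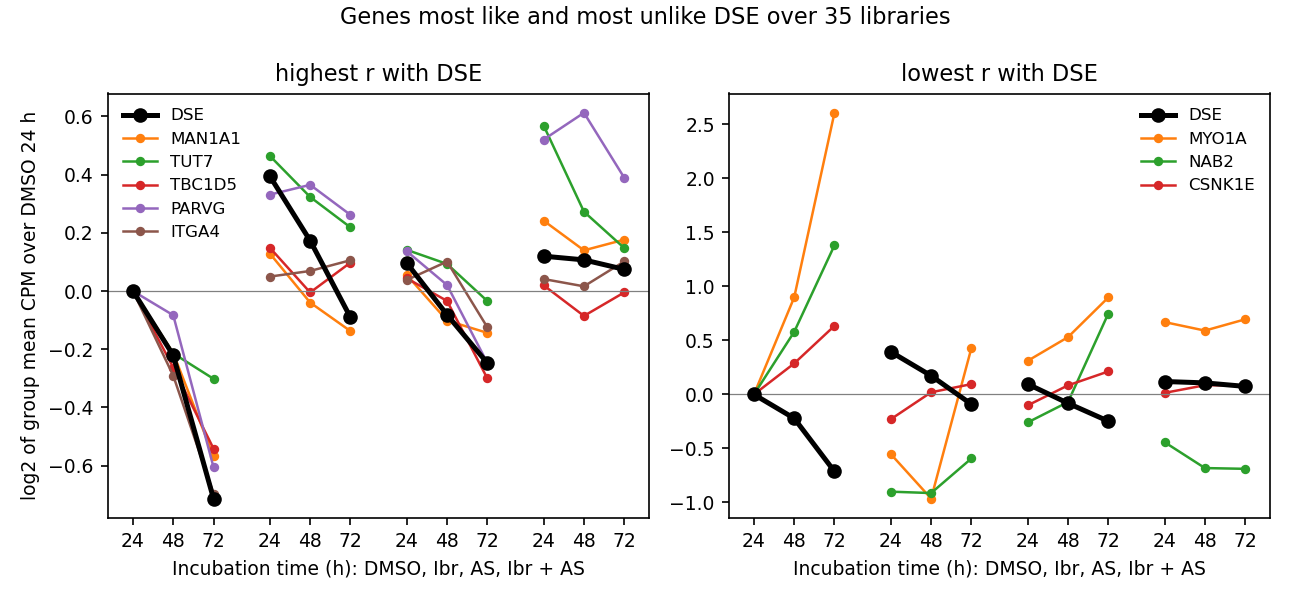
Group means of DSE (black) and of the paired genes with the 5 highest (left) and the 3 lowest (right) r with DSE over 35 libraries, as log2 of CPM over the mean of DMSO at 24 h, for 24, 48 and 72 h within DMSO, Ibr, AS and Ibr + AS from left to right. DSE and the like genes descend in DMSO to their lowest group mean at 72 h, and the unlike genes reach their highest there.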

How the data were processed

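RNA of the 36 libraries was sequenced by the authors as single-end reads of 75 bp. They mapped the reads with STAR 2.7.5a to CanFam3.1 with Ensembl release 101, per the methods and the submitters' processing notes, and deposited raw counts of reads per gene without normalization. The table was used as deposited: 30424 genes, 0 rows without a gene name and 0 pairs of identical libraries.

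DSE, the gene lists and the alternatives were chosen with earlier results of these data known. Counts were fitted in R 4.3.3 with edgeR 4.0.16 (limma 3.58.1): genes with at least 2 reads, TMM factors, robust quasi-likelihood fit, passage number and group as terms, 35 libraries without Ibr 72 h replicate 3, or, for DMSO with time, passage number and incubation time in the 9 DMSO libraries. A test passed at a Benjamini-Hochberg adjusted p of at most 0.05. For CPM on the log2 scale a prior count of 1 was added. Differences of single passages are differences of these log2 CPM, so they can differ from the fit. The fitting was tested on simulated data in which the planted changes were larger than those of DSE, so it does not bear on the sizes given for DSE.

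Passage number was kept as a block because same-numbered libraries come from the same passage. After group means were removed, the median r over 10785 genes was 0.093 for the 187 pairs of libraries of the same passage and -0.035 for the 374 pairs of different passages. The p-values of the fits rest on the variation left after group and passage number, pooled over the fitted groups. They cover repeated cultures of 1 line only.

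Named were DSE, each paired glycosaminoglycan gene (1 item of the list is not reported here), 6 neighbours, and the 5 genes of highest and 3 of lowest r with DSE among paired genes that averaged 1 CPM or more. The annotation at hand (43286 genes) holds 0 Ensembl identifiers, so 1068 symbols were paired through the study's supplementary gene tables, of which only the pairs of identifier and symbol were used. Alternatives were DESeq2 1.42.0, other scaling and filters, all 36 libraries, no passage term, fits of the compared groups only and each replicate left out. The run term and the removal of Ibr + AS 24 h replicate 1 were added after the data had been seen.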

Additional observations from a re-analysis of the deposited data

How the results depend on the processing

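Over all alternatives, 336 of 348 log2 FCs of DSE moved by no more than the pooled SD within groups (0.0927). This is a weak check, since most alternatives refit the same libraries. Some log2 FCs, such as 0.09 for AS against DMSO at 24 h, are no larger than this SD. The values that moved more all involved Ibr + AS. The sign changed only for Ibr + AS against AS at 24 h and against its own 24 h, where the values lay near 0. Without replicate 1, Ibr + AS at 24 h gave 0.22 against DMSO, -0.18 against Ibr and 0.13 against AS, with a departure from additivity of -0.28. Without only Ibr + AS 24 h replicate 1 these were 0.18, -0.18, 0.13 and -0.23, and Ibr + AS against its own 24 h gave -0.1 at 48 h and -0.13 at 72 h. With each replicate left out in turn, the range was 0.02 to 0.22, -0.34 to -0.18, -0.03 to 0.13 and -0.42 to -0.28 at 24 h, and at 72 h 0.03 to 0.27 against Ibr and -0.45 to -0.25 for the departure. Against its own 24 h, Ibr + AS ranged from -0.09 to 0.07 at 48 h and from -0.1 to 0.01 at 72 h. The cause was not tested.

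Calls of glycosaminoglycan genes were 5 higher and 12 lower of 63 tests over 9 comparisons with DMSO (7.94% and 19%, beside 8.42% and 8.25% over all genes). The 63 tests repeat the same 7 genes, SLC35D2 among them, in comparisons that share DMSO libraries. Most of the 12 lower calls were of UST and EXT1, so the shares describe few genes and not the pathway. With fits of the compared groups only, 19 calls were lower (30.2%, beside 13% over all genes). Those of the neighbours (5 higher) numbered 3 to 4 with each replicate left out. Of the 8 genes named for likeness, 3 remained among the 5 highest and 3 lowest by Spearman's rho, 3 over the 12 group means and 5 to 7 with each replicate left out. The share of incubation time was 31.2% to 35.9% and that of passage number 0.498% to 3.81% with each replicate left out.

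Without the replicate block of passage number, DSE gave 0.38, 0.41 and 0.63 for Ibr, 0.09, 0.16 and 0.48 for AS and 0.1, 0.33 and 0.79 for Ibr + AS, and the glycosaminoglycan calls were again 5 and 12. Of the called genes, ZUP1 in DMSO at 48 h alone was lost (edgeR adjusted p = 0.109). Of 406 repeats of called genes, 26 lost the call, mostly with a replicate left out. With 3 passages of 1 line, and 2 for Ibr at 72 h, the SE of 0.088 limits what can be told apart. It comes from 1 estimate of spread for DSE over all groups, so it does not follow the spread of each comparison. Against DMSO, the SD over passages was 0.019 for AS at 24 h. For Ibr + AS it was 0.21 at 24 h and 0.19 at 72 h.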
